A study of Mus musculus with 7 samples.

Results

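The cells described here are inhibitory neurons that carry Sst, the gene of the peptide somatostatin. A cell was counted as one when it held at least 8 transcripts of Sst and at least 5 of Gad1 and Gad2 together, the genes of the enzymes that make GABA. It could hold at most 3 transcripts of Pvalb, the gene of the calcium buffer parvalbumin. It could hold at most 3 of Slc17a6 and 5 of Slc17a7, the genes of the vesicular glutamate transporters. The rule was met by 529 of 384076 cells, or 0.138%. Transcripts of 297 genes had been counted in place by Xenium imaging, which reads individual RNA molecules on the tissue and credits each to a segmented cell. The tissue was fresh-frozen brain of wild-type mice, cut as hemisections 10 µm thick around the anterior thalamus. The 7 sections came from 3 positions along the front-to-back axis, given relative to bregma, a landmark of the skull. Anterior replicates 1 and 2 lay at -0.58 mm, intermediate replicates 1 and 2 between -0.70 and -0.82 mm, and posterior replicates 1, 3 and 4 at -0.94 mm. Replicates 1 and 2 were on slide 1 and replicates 3 and 4 on slide 2, so slide 2 held posterior sections only. No section was treated, and no age of the mice was found in the labels. The labels do not say that replicates came from separate mice, so each p-value reflects only how these sections vary, and that variation may be technical. Cell positions were not used here, so Sst cells of different brain regions in 1 hemisection were not separated by place.

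Somatostatin is released by inhibitory neurons of cortex, hippocampus, striatum and amygdala and by part of the thalamic reticular nucleus, and it dampens its targets through inhibitory G-protein-coupled receptors. In cortex most such neurons contact the dendrites of pyramidal cells, whereas parvalbumin neurons contact the cell body and axon. They form several kinds: one with long-range axons carries Chodl, a C-type lectin, with the substance P receptor Tacr1, and others carry the calcium-binding proteins Calb1 or Calb2.

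All sections together held 146504697 transcripts, and the median per cell ranged from 278 to 390 over the sections. The Sst cells were deeper than the average cell, with a median of 517 transcripts against 339 in all cells and 435 in the 139699 cells with at least 5 transcripts of Gad1 and Gad2. Summed over its Sst cells, a section gave 31006 to 56834 transcripts. Control probes, which match no gene, gave 0.482 counts per Sst cell and 0.656 per cell overall. The stem of a cell barcode was shared between sections for 8 stems, and no Sst cell was among them. Segmented cells can hold transcripts of their neighbours, and intervals on shares cover counting error only.

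Under this rule the Sst cells were rare in every section. Anterior replicates 1 and 2 held 69 and 82 Sst cells, intermediate replicates 1 and 2 held 70 and 110, and posterior replicates 1, 3 and 4 held 56, 70 and 72. As a share of all cells this was 0.129% and 0.148% in the anterior sections, 0.124% and 0.198% in the intermediate sections, and 0.107%, 0.115% and 0.144% in the posterior sections. Intermediate replicate 2 was the highest, with a 95% Wilson interval of 0.164% to 0.238%, and posterior replicate 1 the lowest, with 0.0822% to 0.139%. The 2 intermediate sections differed from each other by more than any position mean differed from another. The posterior mean was 0.122% ± 0.0192 (SD, n = 3) and the anterior mean 0.139% ± 0.0132 (SD, n = 2). This difference of -0.0169 percentage points did not pass a two-sided exact permutation test (p = 0.4), which with 2 against 3 sections cannot go below 0.1. With counts thinned to the depth of the shallowest section the difference was -0.0149 points, at the smallest p this test allows (exact permutation p = 0.1). Its sign turned when the limit on Slc17a7 was dropped (0.0380 points, exact permutation p = 0.5), an alternative chosen after seeing the data. Without that limit the shares were higher, 0.302% in posterior and 0.264% in anterior sections, so how rare the cells are depends on it. Of the cells with at least 5 transcripts of Gad1 and Gad2, 0.291% to 0.505% were Sst cells.

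**Figure D1:**
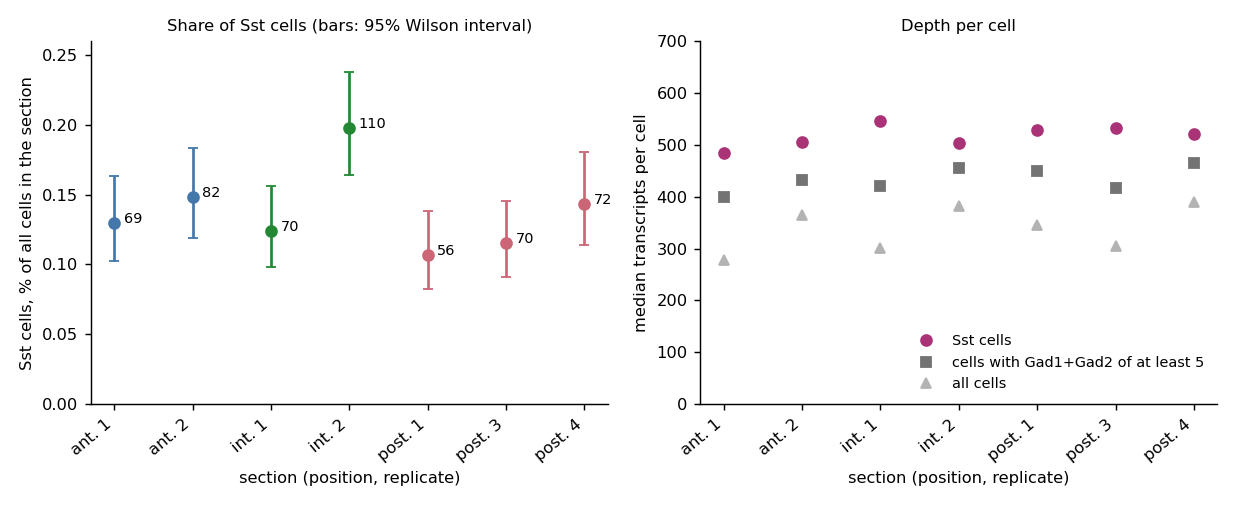
Share of all cells that met the Sst rule (percent, vertical axis) in each of the 7 sections, with 95% Wilson intervals as bars and the number of Sst cells beside each point (left), and the median transcripts per cell of Sst cells, cells with at least 5 transcripts of Gad1 and Gad2, and all cells in each section (right). Intermediate replicate 2 sits highest at 0.198%, the anterior and posterior sections overlap between 0.107% and 0.148%, and Sst cells are the deepest in each section.

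The genes of the rule are given as a description, since they chose the cells. Sst had a median of 11 transcripts per Sst cell and a maximum of 40, against a mean of 0.176 in all cells. Gad1 had a median of 23 and Gad2 of 12. Pvalb was at 0 in 359 of the 529 cells, Slc17a6 in 416 and Slc17a7 in 273. The minimum of 8 Sst transcripts cut through a continuous range. There were 172 cells with 8 or 9 Sst transcripts, and 280 further cells with 6 or 7 that met every other condition. Just inside and just outside this edge, cells held 12.7 and 10.4 transcripts of Rab3b, 2.50 and 1.57 of Chodl, 3.23 and 1.87 of Tacr1, 2.19 and 1.24 of Npy2r, and 3.86 and 4.21 of Calb2.

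The limits on the other genes removed many cells with as much Sst. Of 1705 cells with at least 8 Sst transcripts, 871 were over the limit on Slc17a7, 545 over that on Pvalb, 55 over that on Slc17a6 and 11 under the minimum of Gad1 and Gad2. Cells that failed only the limit on Slc17a7 numbered 582, more than the 529 that met the rule, and had a median of 675.5 transcripts. Slc17a7 is the glutamate transporter of cortical and hippocampal excitatory neurons. Per cell they held 23.5 transcripts of Rab3b against 15.2 in the Sst cells, 12.3 against 5.81 of Calb1 and 3.91 against 2.03 of Cort. They held less Chodl (2.32 against 4.21), Tacr1 (1.05 against 4.51), Npy2r (0.444 against 2.39), Meis2 (3.58 against 7.06) and Ppp1r1b (1.32 against 4.49). Neurod6, a transcription factor of excitatory cortical neurons, was at 2.14 there and 0.385 in the Sst cells, and whether transcripts of excitatory neighbours are part of this was not tested. The 274 cells that failed only the limit on Pvalb stood apart in another way, with 14.0 transcripts of the transcription factor Nr2f2 against 1.58, and with 0.567 of Chodl and 0.188 of Tacr1. The Sst cells described here are therefore the part of the Sst-positive cells that is low in Slc17a7 and Pvalb.

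Beside the genes of the rule, the genes that stood highest against the average cell were genes known from Sst interneurons. They are given as ratios to the mean of all 384076 cells, ranked among the 125 genes outside the rule with at least 1 transcript per Sst cell, as a description of the cells that the rule picked. Chodl had 4.21 ± 0.530 transcripts per cell (SD, n = 7 sections; lowest 3.69, median 4.10, highest 4.93), 48.2 times the mean of all cells. Tacr1, the receptor of substance P, had 4.51 ± 0.791 (lowest 3.56, median 4.31, highest 5.97), or 33.7 times. Cort, which encodes cortistatin, a peptide related to somatostatin, had 2.03 ± 0.852 (lowest 1.29, median 1.68, highest 3.80), or 21.2 times. Each of these 3 genes was well above its level in all cells in each of the 7 sections, and Cort spread most between sections. Npy2r, a receptor of neuropeptide Y, had 2.39 ± 0.418 (lowest 1.61, median 2.51, highest 2.79), or 17.5 times. Rab3b, a small GTPase of synaptic vesicle release, had 15.2 ± 2.13 (lowest 12.9, median 14.6, highest 17.9), or 10.4 times. Pdyn, the gene of the dynorphin peptides, had 3.29 ± 1.69 (lowest 1.13, median 3.43, highest 6.49), or 7.32 times, and was the most uneven of these genes across sections. Also above 4.9 times were Ndst4, which modifies heparan sulfate (8.19 times), Rbp4, a retinol carrier (6.68 times), Zcchc12, a transcriptional co-activator (5.96 times), Cntnap4, a neurexin-family adhesion gene (5.27 times), the synaptotagmin Syt6 (5.12 times), Nell1, a secreted protein (5.11 times), the collagen Col19a1 (5.02 times) and Cbln4, a secreted synapse organizer (4.95 times). The Sst label fits these genes in that 5 genes known from Sst neurons (Chodl, Tacr1, Cort, Npy2r and Rab3b) lead the list.

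In raw counts per cell, markers of glutamatergic neurons, glia and vascular cells were lower than in the average cell, whereas the sum of striatal-type markers was higher. The summed level of 4 glutamatergic markers outside the rule (Neurod6, Fezf2, Rorb and Cux2) ranged over sections from 3.5 to 5.28 transcripts per Sst cell, against a mean of 7.78 in all cells. The 5 astrocyte markers summed to 7.26 to 9.0 per Sst cell against 12.0 in all cells. The 4 oligodendrocyte markers summed to 1.97 to 4.88 against 6.42. Microglial markers averaged 1.91 per Sst cell, endothelial 1.29, mural 0.431 and fibroblast 0.556. No marker of these lists was at 0 in every section. Glial and vascular markers together made up 2.92% of the transcripts of Sst cells and 7.79% of those of all cells, and 17 of the 529 Sst cells were over 10%. The 5 striatal-type markers (Ppp1r1b, Penk, Pdyn, Rasl10a and Meis2) summed to 16.1 to 23.4 per Sst cell, above the 12.0 in all cells.

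To show what sets the Sst cells apart from other inhibitory neurons, they were compared with 3 classes defined in the same way. Each class needed at least 8 transcripts of its own naming gene, at least 5 of Gad1 and Gad2, the same limits on Slc17a6 and Slc17a7, and at most 3 transcripts of Sst. The Vip and Lamp5 classes also had at most 3 of Pvalb, and the Lamp5 class at most 3 of Vip. This gave 16660 Pvalb cells, 572 Vip cells and 2439 Lamp5 cells. Counts were summed per section and class and compared within section with edgeR's quasi-likelihood test. A gene was called at a Benjamini-Hochberg adjusted p under 0.05 over all genes tested. The genes that either rule used were left out of library sizes and tests. The 3 comparisons share the same Sst cells, so they are not independent of each other. Gene lists were drawn up with earlier results of these data known, so their counts are descriptions, to be read beside the share of all genes called.

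Against the cells of the Pvalb rule, Sst cells carried more peptide, calcium-binding and subtype genes. The Pvalb class is called by its rule only. Its leading genes against all cells included Spp1, Kcnmb2, Fign and Ramp3. It gave 1.18 control-probe counts per cell, against 0.482 in Sst cells. Of 291 genes tested, 112 were higher in Sst cells (38.5%) and 117 lower (40.2%), so 78.7% of the genes tested differed between the classes. The median log2 difference over all genes was -0.10. The sign was the same in all 7 sections for 69.8% of genes tested. Scaling by library size in place of TMM, edgeR's trimmed-mean scaling, moved the split to 88 higher and 145 lower and the median by -0.30. Glial and vascular markers were higher in the Pvalb class, where they made up 9.38% of transcripts against 2.92% in Sst cells. The astrocyte markers, for one, summed to 17.5 per Pvalb cell and 8.0 per Sst cell, and 8343 of the Pvalb cells had over 10% of their transcripts from glial and vascular markers. With all cells over 10% left out of both classes, 94 genes were higher and 98 lower, and the log2 differences of Chodl (5.07), Tacr1 (4.07), Pdyn (4.30), Cort (2.34), Rab3b (2.07) and Syt2 (-3.45) remained past the threshold, whereas Cdh13 (0.77) no longer passed (0.19, adjusted p = 0.077) and Id2 moved from -1.32 to -0.24. With no limit on Slc17a7 in either class, Cbln4 moved from 3.76 to 2.74, Nell1 from 3.61 to 2.58, Syt5 from 3.09 to 1.73 and Spp1 from -3.46 to -2.12.

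Among peptides and their receptors, 10 of 14 genes tested were higher in Sst cells and 2 lower, with a median log2 difference of 1.78. Pdyn had 3.29 ± 1.69 transcripts per Sst cell against 0.0819 ± 0.0219 per Pvalb cell (SD, n = 7 sections each), a log2 difference of 4.98 ± 0.21 (SE, adjusted p = 6.0e-11). Tacr1 had 4.51 against 0.157 (lowest 0.112, median 0.168, highest 0.182 in Pvalb cells), with a log2 difference of 4.62 ± 0.13 (SE, adjusted p = 7.8e-13). For both genes every Sst value lay above every Pvalb value, and the lowest Sst section for Tacr1 was at 3.56. Npy2r differed by 3.40 on the log2 scale, Cort by 3.20, the corticotropin-releasing hormone gene Crh by 3.03 and the enkephalin gene Penk by 2.40. Crh did so from low levels, 0.343 per Sst cell and 0.0331 per Pvalb cell, and it no longer passed among cells with at least 16 Sst transcripts (0.80, adjusted p = 0.34). The parathyroid-hormone-like gene Pthlh was lower in Sst cells (log2 difference -2.57).

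Of 16 genes listed for Sst interneuron subtypes, 15 were higher in Sst cells and 1 was lower, with a median of 2.63. The list was made of genes known to mark Sst cells. Chodl showed the largest difference of the list, with 4.21 per Sst cell against 0.105 per Pvalb cell (lowest 0.0880, median 0.106, highest 0.116) and a log2 difference of 5.08 ± 0.12 (SE, adjusted p = 3.3e-13). Cbln4 differed by 3.76 and Rab3b by 2.78, from 1.89 per Pvalb cell to 15.2 per Sst cell. The exception was Nr2f2, a transcription factor of the caudal ganglionic eminence, with 1.58 ± 0.409 per Sst cell and 4.74 ± 1.14 per Pvalb cell (log2 difference -1.81 ± 0.15, adjusted p = 5.6e-08). Of 9 calcium-binding genes, 8 were higher in Sst cells and none lower. Calb2 (log2 difference 2.95) had a Sst range of 1.78 to 7.23 over sections and a Pvalb range of 0.245 to 0.671, and Calb1 (2.33) ranged from 4.16 to 6.36 against 0.804 to 1.20. Calretinin and calbindin, their products, buffer calcium as parvalbumin does.

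Synaptic and regulatory genes split both ways. Of 9 genes of synaptic release, 4 were higher and 3 lower in Sst cells. Syt2, the fast calcium sensor of many parvalbumin terminals, had 0.322 ± 0.104 per Sst cell and 2.36 ± 0.434 per Pvalb cell, a log2 difference of -3.11 ± 0.16 (adjusted p = 4.6e-10). Syt6 (2.67), of the same family, was higher in Sst cells, as was Syt5 (3.09), which was outside the list. Transcription factors gave 8 higher and 10 lower of 25, with a median of -0.14 against -0.10 for all genes, so as a group they did not lean. Tox (2.14) and Bcl11b (2.06) were higher, and Prox1 (-1.39) and Id2 (-1.32) lower. Meis2, a homeobox factor, did not pass (log2 difference -0.10, adjusted p = 0.34), with 7.06 per Sst cell and 6.42 per Pvalb cell. Of 15 channels and receptors, 8 were higher and 5 lower, among the higher ones the kainate receptor Grik3 (1.5) and the nicotinic receptor modulator Lypd6 (2.48). The muscarinic receptor Chrm2 did not pass (0.12, adjusted p = 0.46). The largest difference on the Pvalb side was that of the mural marker Pln (-5.48), at 0.0142 per Sst cell and 0.541 per Pvalb cell. Pln was near the floor in Sst cells, so the size of this difference rests on very few transcripts. Vascular transcripts were also more common in the Pvalb class, and their part in it was not tested. Other genes far higher in Pvalb cells were Rab37, a secretory GTPase (-3.74), Ramp3, a receptor-modifying protein (-3.65), Spp1, osteopontin (-3.46), and Serpinf1, a secreted serpin-family protein (-3.44).

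**Figure D2:**
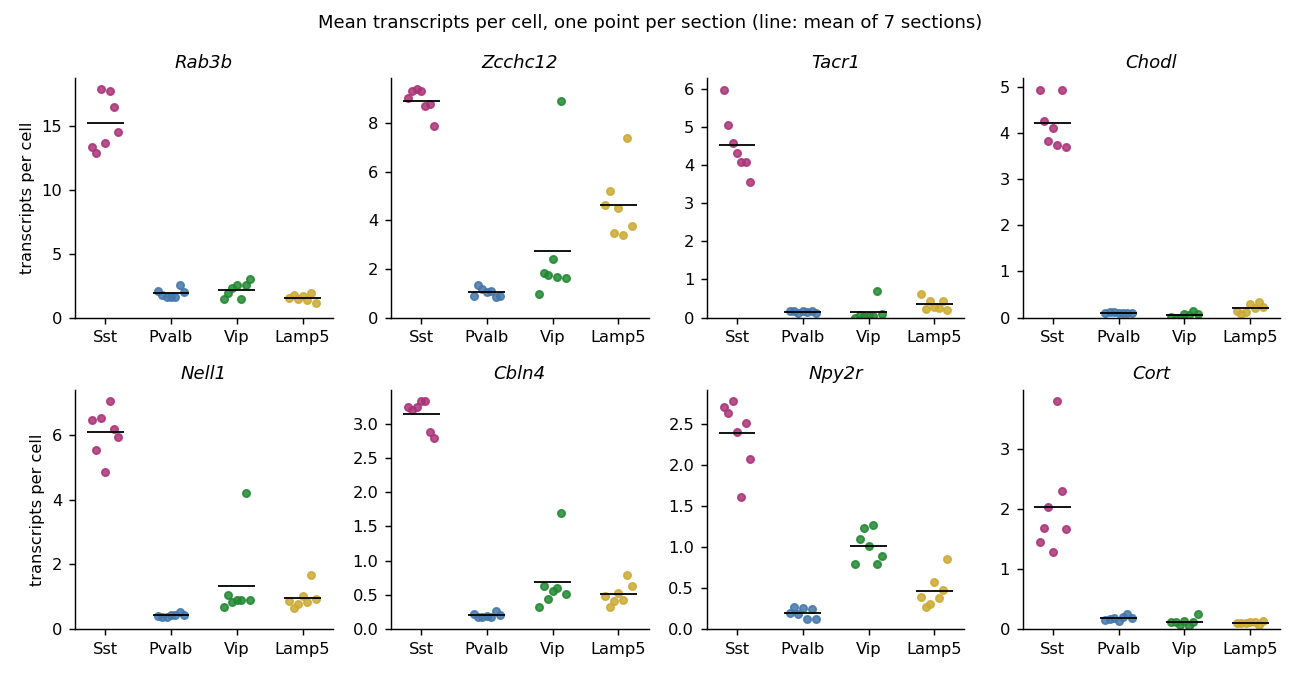
Transcripts per cell (linear axes from 0) of 8 genes named in the text in Sst, Pvalb, Vip and Lamp5 cells, with a point for each of the 7 sections and a line at their mean. All 8 means sit highest in Sst cells, with Chodl at 4.21 there and at or below 0.201 in the other classes.

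Against Vip cells, which carry vasoactive intestinal peptide and in cortex mainly inhibit other interneurons, the Sst cells were again higher in Chodl, Tacr1, Cort, Pdyn and Rab3b, and lower in Adarb2, Prox1 and Crh. Of 270 genes tested, 158 were called (58.5%), 85 higher (31.5%) and 73 lower (27%), with a median of -0.03. The sign was the same in all 7 sections for 45.2%. Library-size scaling gave 61 higher and 100 lower and moved the median by -0.28. The Vip cells were shallower (median 319.5 transcripts against 517). Glial and vascular markers made up 4.44% of their transcripts against 2.92% in Sst cells. All 5 endothelial markers (median log2 difference -1.15), 3 of 5 fibroblast markers and 1 of 3 mural markers were lower in Sst cells. With cells over 10% left out, 71 genes were higher and 67 lower, and Chodl (5.59), Tacr1 (4.84), Cort (3.44), Rab3b (2.21), Adarb2 (-4.56), Prox1 (-3.27) and Crh (-3.88) remained past the threshold. Posterior replicate 3 held 153 of the 572 Vip cells, and they stood apart from the other Vip cells with 0.693 transcripts of Tacr1 and 4.20 of Nell1 against medians over sections of 0.0508 and 0.887. Without that section 91 genes were higher and 79 lower, and the log2 difference of Tacr1 rose from 5.02 to 6.06.

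In this comparison Chodl had a log2 difference of 5.78 ± 0.38 (adjusted p = 2.7e-07), with 0.0554 per Vip cell. Among Vip cells Chodl was at 0 in anterior replicate 2 and intermediate replicate 1, and highest in posterior replicate 3 (0.150). The size of this difference therefore rests on few Vip transcripts. Cort differed by 3.60 and Pdyn by 4.40, and Rab3b went from 2.19 per Vip cell to 15.2 (log2 difference 2.37 ± 0.13, adjusted p = 1.3e-07). Npy2r differed by 0.79 ± 0.17 (adjusted p = 0.0021, higher in 6 of 7 sections), with 1.01 per Vip cell, and no longer passed when the limit on Slc17a7 was dropped (0.33, adjusted p = 0.051). Of 13 peptide and receptor genes 5 were higher and 5 lower in Sst cells. Crh was lower, with 0.343 ± 0.241 per Sst cell and 2.81 ± 0.366 per Vip cell (log2 difference -3.64 ± 0.31, adjusted p = 1.4e-06). Igf1, a growth factor (-2.43), and Pthlh (-4.29) were lower too, whereas Penk did not pass (-0.13, adjusted p = 0.51). Of 24 transcription factors, 6 were higher and 10 lower. Prox1 had 0.827 ± 0.183 per Sst cell against 4.55 ± 1.11 per Vip cell (-2.90 ± 0.21, adjusted p = 4.8e-07). Adarb2, an RNA-binding protein of interneurons of the caudal eminence, had 0.375 against 5.39 (-4.28 ± 0.22, adjusted p = 1.1e-07). Meis2 (1.17) was higher in Sst cells, but not without the limit on Slc17a7 (0.08, adjusted p = 0.37). Calb1 (1.53) was higher in Sst cells and Calb2 (-1.02) lower, but the sections overlapped for Calb2 (1.78 to 7.23 against 4.02 to 9.39) and its call was lost among cells with at least 16 Sst transcripts (-0.54, adjusted p = 0.11). Of 14 channels and receptors 9 were higher in Sst cells and 1 lower, with a median of 0.96. Of 6 activity-regulated genes 4 were lower, among them Fos (-0.79).

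The class defined by Lamp5 did not look like the neurogliaform interneurons that Lamp5 marks in cortex. Its leading genes included Pdyn, Pde11a, Ppp1r1b and Necab2, and its summed striatal-type markers were 65.5 per cell against 19.4 in Sst cells. It is called here by its rule only. Against it, of 284 genes tested, 172 were called (60.6%), 90 higher in Sst cells (31.7%) and 82 lower (28.9%), with a median of -0.07 and the same sign in every section for 48.6%. Library-size scaling gave 103 higher and 64 lower and moved the median by 0.14. Chodl differed by 4.60 ± 0.25 (adjusted p = 5.7e-09), Cort by 4.36 ± 0.20 (adjusted p = 1.3e-09), Tacr1 by 3.9 and Rab3b by 3.42. Each of these 4 genes was higher in all 7 sections, with no overlap. Of the 5 striatal-type markers 4 were lower in Sst cells and none higher. Ppp1r1b, the gene of the dopamine-signalling protein DARPP-32, had 4.49 ± 1.07 per Sst cell (lowest 3.51, median 4.0, highest 6.17) against 24.9 ± 4.13 (log2 difference -2.35 ± 0.14, adjusted p = 9.9e-09). Meis2 (-1.65), Penk (-1.18) and the transcription factor Foxp2 (-2.34) were lower as well. Pdyn (-0.57, adjusted p = 0.0083) was lower in 6 of 7 sections. Without the limit on Slc17a7 its sign turned (1.34), Penk moved to -0.35, Foxp2 to -1.42 and Ppp1r1b to -1.69. Calb1 did not pass (-0.18, adjusted p = 0.12), with 5.81 per Sst cell and 7.17 per Lamp5 cell. Calb2 (2.07) passed with overlapping sections, 1.78 to 7.23 against 0.368 to 3.49.

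**Figure D3:**
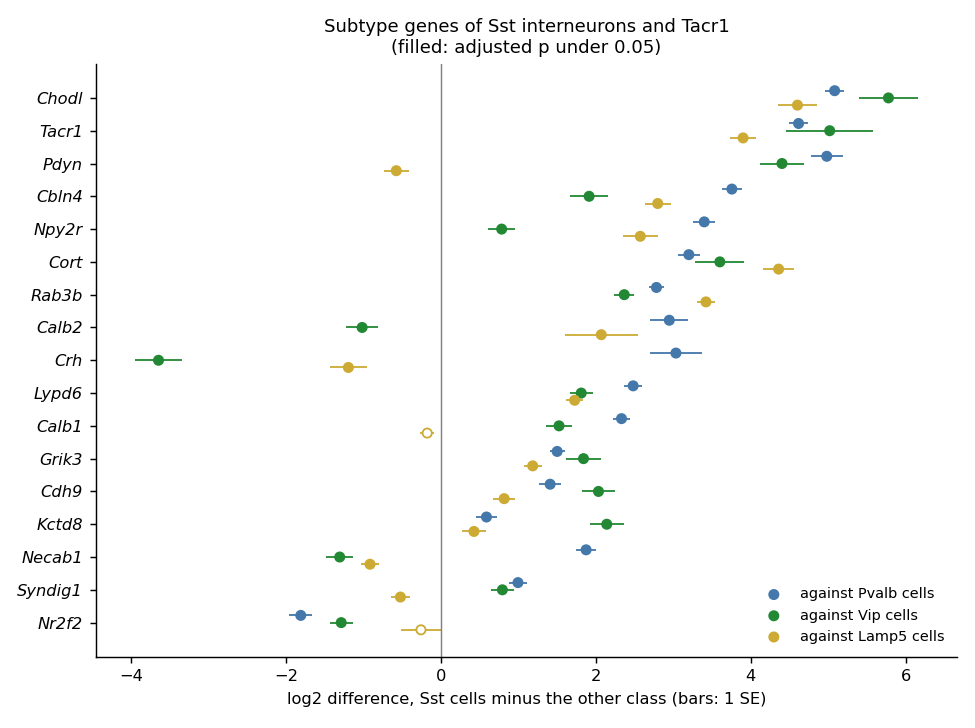
Log2 difference between Sst cells and each of the 3 other classes, with SE bars, for the 16 measured genes listed for Sst interneuron subtypes and Tacr1, with filled points where the adjusted p was under 0.05. Chodl lies farthest right, between 4.60 and 5.78, and Nr2f2 lies left of 0 against Pvalb cells at -1.81. The 5.78 is against Vip cells, where Chodl was near the floor, so its size is uncertain.

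The means hide that most of these genes are carried by part of the Sst cells. Rab3b was the exception, since 498 of the 529 cells (94.1%) held at least 3 transcripts. Chodl reached 3 transcripts in 204 cells (38.6%; 30.9% to 47.1% over sections) and was at 0 in 257. Tacr1 reached it in 248 cells (46.9%; 31.9% to 60.9%), Npy2r in 196 (37.1%), Calb2 in 169 (31.9%), Pdyn in 116 (21.9%) and Cort in 96 (18.1%). The same share was 0.426% of Pvalb cells and 0.350% of Vip cells for Chodl, and 1.85% and 1.22% for Cort, below the Sst cells for both genes. Not every gene stood out in this way, since Calb2 reached 3 transcripts in 49.8% of Vip cells and Pdyn in 44.5% of Lamp5 cells, above their shares of Sst cells. For Chodl and Tacr1 the gap to Pvalb cells was also there at equal depth: when every cell was thinned to 150 transcripts, which left out 1 Sst cell and 638 Pvalb cells, at least 1 Chodl transcript remained in 41.5% of Sst cells and 3.99% of Pvalb cells, and at least 1 Tacr1 transcript in 49.6% and 3.86%. Of the 6 genes Chodl, Tacr1, Npy2r, Calb2, Cort and Pdyn, 44 Sst cells held none at 3 transcripts or more, 130 held 1, 195 held 2, 133 held 3, 25 held 4 and 2 held 5.

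Which of these genes shared a cell was uneven, and is given as a description with no test. Of the 204 cells with at least 3 Chodl transcripts, 175 (85.8%) also reached 3 of Tacr1, against 22.5% of the cells with fewer Chodl transcripts. Npy2r was reached in 52.9% against 27.1%, and Meis2 in 76.5% against 48.0%. Chodl cells thus carried these 3 genes more often than the rest. Calb2 was reached in 21.1% of Chodl cells against 38.8% of the others, Cort in 13.7% against 20.9%, and Pdyn in 5.39% against 32.3%. Chodl and Pdyn shared 11 cells.

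The Chodl cells also differed in level from the 257 Sst cells without a Chodl transcript. This division was chosen after the values were seen and has no test. Depth was nearly the same, with a median of 527 against 517 transcripts. Tacr1 had 8.56 ± 1.29 per cell with Chodl (lowest 7.0, median 8.38, highest 10.7) and 1.47 ± 0.278 without it (lowest 1.09, median 1.47, highest 1.94). Npy2r had 3.21 against 1.41, Pcp4, a calmodulin-binding peptide, 17.1 against 4.51, and Syt6 6.78 against 2.60. Penk had 6.20 against 2.84, Ppp1r1b 7.22 against 2.70, Nell1 8.57 against 4.03 and Chrm2 3.27 against 0.952. Tacr1 and Npy2r were higher with Chodl in 7 of 7 sections. In the other direction stood Rbp4 with 0.592 against 5.45, Pdyn with 0.655 against 6.01, the adhesion gene Thsd7a with 1.61 against 5.79 and Calb1 with 3.35 against 8.16.

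Sst cells with Meis2 carried more Ppp1r1b, Pcp4 and Tacr1 and less Calb2 than Sst cells without it. Cells with at least 3 Meis2 transcripts numbered 312 and cells with none 96. The comparison used the 5 sections with at least 10 cells on each side (211 against 79 cells), which leaves out anterior replicate 2 and posterior replicate 4. Of 215 genes tested, 49 were called (22.8%), 25 higher in the Meis2 cells (11.6%) and 24 lower (11.2%), with a median of 0.03. The sign was the same in all 5 sections for 33.5%. Median depth was 531.5 against 491.5 transcripts. With every cell thinned to 150 transcripts, 134 genes could be tested and 29 were called (12 higher, 17 lower), of which 25 were among the 49.

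Ppp1r1b had the smallest adjusted p of this division, with 8.13 ± 1.56 per cell with Meis2 (5.78 to 10.1 over the 5 sections) and 0.488 ± 0.121 without (0.300 to 0.640), a log2 difference of 3.69 ± 0.24 (adjusted p = 2.7e-06). Pcp4 had 15.3 against 3.44 (1.84, adjusted p = 0.00045) and Tacr1 6.74 ± 0.846 against 1.79 ± 1.01 (1.72, adjusted p = 0.0034). The synaptic adhesion gene Slitrk6 (adjusted p = 0.0079) passed from low levels, 0.468 against 0.0310 per cell. Npy2r (2.37), Syt6 (1.77), Bcl11b (1.48) and Penk (1.21) were higher too, and the 5 sections of the sides did not overlap for any of these genes. Without posterior replicate 3, Npy2r moved to 3.02. Foxp2 (2.28, adjusted p = 0.015) lost its call without intermediate replicate 2 (1.97, adjusted p = 0.068) and moved to 3.0 without posterior replicate 3. Of 3 striatal-type markers tested, Ppp1r1b and Penk were higher and Pdyn lower. Whether transcripts of striatal-type neighbours are part of this, here or in the other divisions, was not tested. Chodl was higher in 5 of 5 sections, 5.52 against 3.0, but did not pass (0.66, adjusted p = 0.060). On the other side, Meis2 cells held less Calb2 (2.71 against 6.13, log2 difference -1.49 ± 0.23, adjusted p = 0.0018), Calb1 (-0.90), Rab3b (-0.66), Rbp4 (-1.50) and the collagen Col19a1 (-2.14). Pdyn was lower in 4 of 5 sections (-1.47, adjusted p = 0.039) and lost its call without intermediate replicate 1 (-1.40, adjusted p = 0.084), intermediate replicate 2 (-1.23, adjusted p = 0.13) or posterior replicate 1 (-1.02, adjusted p = 0.16). Of 4 glutamatergic markers tested, Neurod6 (-2.15) was lower in Meis2 cells, with 0.211 against 0.760 per cell. Neurod6 lost its call in 4 of the 5 fits that leave out a section, without anterior replicate 1, intermediate replicate 1, posterior replicate 1 or posterior replicate 3, and moved to -2.84 without intermediate replicate 2. Whether excitatory neighbours contribute to the cells without Meis2 was not tested. Of 6 activity-regulated genes 2 were lower, Nrn1 (-1.97) and Fos (-1.71), with a median of -1.17. Fos lost its call without anterior replicate 1 (-1.31, adjusted p = 0.060) or posterior replicate 3 (-1.55, adjusted p = 0.058). This division depended on the limit on Slc17a7. Without it Ppp1r1b stayed past the threshold at 2.37, Pcp4 at 1.05 and Npy2r at 1.40, but Calb1 (-0.14), Nrn1 (-0.35) and Fos (-0.78) no longer passed.

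Sst cells with Calb2, the gene of calretinin, carried more Nr2f2 and Rreb1 and less Ppp1r1b, Tacr1 and Chodl. The comparison used all 7 sections, with 169 cells at 3 or more Calb2 transcripts against 268 at 0, and median depths of 534 and 510.5. Of 234 genes tested, 75 were called (32.1%), 33 higher in the Calb2 cells (14.1%) and 42 lower (17.9%), with a median of 0.01. The sign was the same in all 7 sections for 22.2%. After thinning to 150 transcripts, 148 genes could be tested and 45 were called (18 higher, 27 lower), of which 40 were among the 75. This division shares its cells with the one by Meis2, since 42.6% of Calb2 cells but 66.7% of the other Sst cells had at least 3 Meis2 transcripts.

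Nr2f2 had 2.83 ± 0.898 per Calb2 cell (lowest 2.08, median 2.42, highest 4.50) and 0.758 ± 0.244 per cell without Calb2 (lowest 0.400, median 0.791, highest 1.18), a log2 difference of 1.85 ± 0.20 (adjusted p = 6.3e-07). The zinc-finger factor Rreb1 had 2.05 against 0.455 (2.12 ± 0.25, adjusted p = 2.4e-06), and the long noncoding RNA Rmst 6.09 against 2.08 (1.49). For these 3 genes the 7 sections of the sides did not overlap. Adarb2 (1.66), the adhesion gene Mdga1 (1.87), the semaphorin receptor Nrp2 (1.52) and the serotonin receptor Htr2c (0.62) were higher in 7 of 7 sections with overlapping ranges. Htr2c lost its call after thinning (0.56, adjusted p = 0.058) or with a minimum of 5 Calb2 transcripts (0.46, adjusted p = 0.11). Of 23 adhesion and guidance genes, 6 were higher and 5 lower. Lower in Calb2 cells were Ppp1r1b (0.972 against 6.91, log2 difference -2.95 ± 0.22, adjusted p = 4.8e-09), Pcp4 (-1.65), Tacr1 (1.84 against 6.16, -1.76 ± 0.17, adjusted p = 1.8e-07) and Syt6 (-1.34), none of them with overlap. Chodl was lower in 6 of 7 sections, 2.46 against 5.53 (-1.24, adjusted p = 0.0013), and no longer passed without the limit on Slc17a7 (-0.31, adjusted p = 0.30), where Nr2f2 moved to 0.53, Rreb1 to 1.45 and Ppp1r1b to -1.76. Npy2r (-0.85), Rbp4 (-1.28), Bcl11b (-1.11) and Meis2 (-0.90) were lower too. Penk (-0.88, adjusted p = 0.0072) lost its call without posterior replicate 4 (-0.74, adjusted p = 0.056). Rab3b (0.03, adjusted p = 0.88), Calb1 (0.38, adjusted p = 0.092), Cort (0.25, adjusted p = 0.59) and Pdyn (-0.10, adjusted p = 0.85) did not pass in this division.

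**Figure D4:**
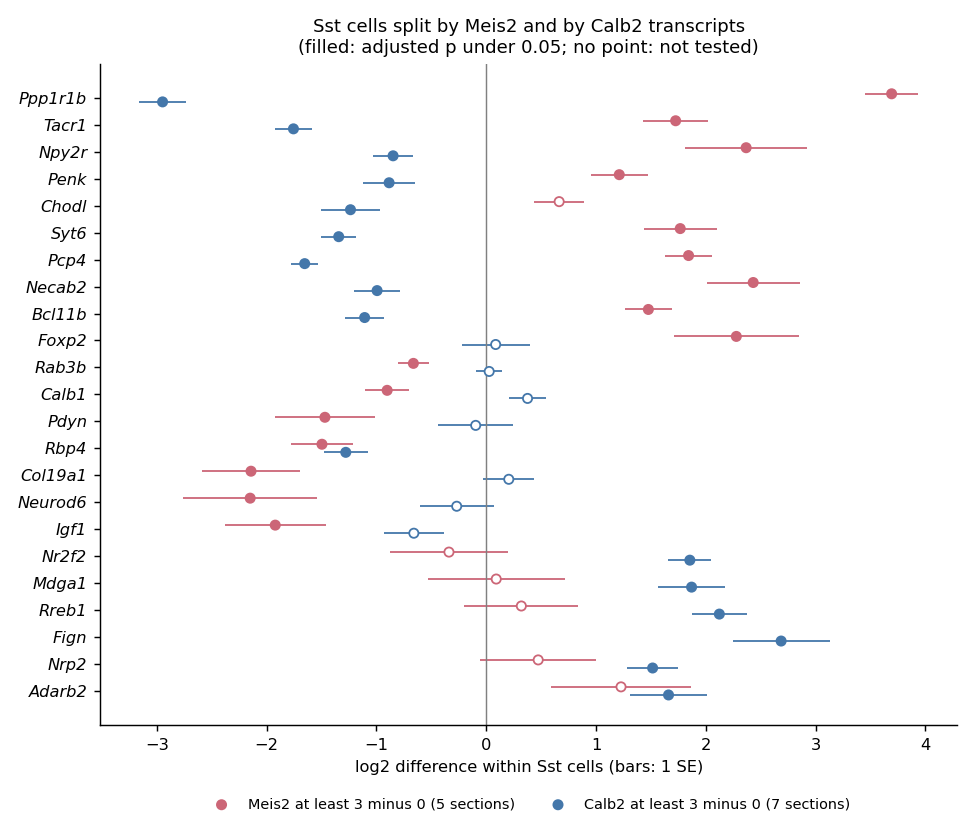
Log2 difference (horizontal axis, bars 1 SE) between Sst cells with at least 3 transcripts and with none of Meis2 (red, 5 sections) or Calb2 (blue, 7 sections), with filled points where the adjusted p was under 0.05. Ppp1r1b lies at 3.69 for Meis2 and -2.95 for Calb2, and Nr2f2 and Rreb1 pass only for Calb2 (1.85 and 2.12), a difference between the divisions that was not tested.

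Cells with Cort or with Pdyn, also divided after seeing the values and without a test, had other partners. The 96 cells with at least 3 Cort transcripts held 8.48 transcripts of Rbp4 against 1.36 in the 350 cells with none, 21.1 against 12.7 of Rab3b and 1.83 against 0.411 of Igf1. They held less Meis2 (2.95 against 8.88), Npy2r (0.484 against 3.22), Ppp1r1b (0.860 against 6.30) and Tacr1 (2.06 against 5.66). Each of these 7 genes had the same sign in 7 of 7 sections. The 116 cells with at least 3 Pdyn transcripts held more Thsd7a (8.13 against 2.39 in the 294 cells with none), the cadherin Cdh13 (13.5 against 6.28), Rab3b (21.1 against 13.5) and Calb1 (8.86 against 4.96). They held less Chodl (1.03 against 5.12), Nr2f2 (0.395 against 2.19) and Cntnap4 (1.23 against 3.76), in 7 of 7 sections each.

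Along the front-to-back axis no gene passed in the main fit, which held position alone. Of 253 genes tested in Sst cells between posterior and anterior sections with edgeR, 0 (0%) were called. The smallest adjusted p was 0.20, 29 genes had an unadjusted p under 0.05 (17 higher and 12 lower in posterior sections), and DESeq2 called 0. For 72 genes (28.5%) the anterior and posterior values did not overlap. With so few sections, values without overlap are common also where position makes no difference. The genes below had the smallest p-values and were picked after these were seen.

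Tacr1 had 5.97 and 5.04 transcripts per Sst cell in anterior replicates 1 and 2, 4.59 and 4.31 in intermediate replicates 1 and 2, and 4.07, 4.07 and 3.56 in posterior replicates 1, 3 and 4. Both anterior values lay above both intermediate values, and these above the 3 posterior ones. Its log2 difference was -0.61 ± 0.16 (SE, adjusted p = 0.20). It passed when the limit on Slc17a7 was dropped (-0.82, adjusted p = 0.0047), as did Syt6 (-0.64, adjusted p = 0.037), 2 genes in all. Pdyn had 1.13 and 2.60 in the anterior sections, 3.43 and 2.08 in the intermediate and 3.52, 6.49 and 3.78 in the posterior sections (log2 difference 1.19 ± 0.34, adjusted p = 0.20). The anterior and posterior values did not overlap, and intermediate values lay between or beside them. Crh had 0.130 and 0.195, then 0.229 and 0.191, then 0.482, 0.357 and 0.819 (1.64 ± 0.45), at low levels throughout. Rmst went the other way, with 3.61 and 5.93, then 3.53 and 4.99, then 2.98, 2.96 and 3.0 (-0.78 ± 0.22). Replicate 2 was the higher of the pair at both anterior and intermediate positions for Rmst. Chrm2 had 2.25 and 2.57, then 2.03 and 1.62, then 1.73, 1.73 and 1.49 (-0.66 ± 0.20). The leading genes of the Sst cells other than Tacr1 did not pass either: Chodl (-0.26, adjusted p = 0.58), Npy2r (-0.48, adjusted p = 0.38) and Cort (0.61, adjusted p = 0.54).

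Whether anything was called depended on single sections and on the settings of the fit. Leaving out 1 anterior section leaves a single one, which is then assumed to vary as the intermediate and posterior sections do. Without anterior replicate 1, 2 genes were called, Rmst (-1.07, adjusted p = 0.025) among them. Without anterior replicate 2 there were 2, with Pdyn at 1.90 (adjusted p = 0.0024), and without intermediate replicate 1 there were 3, Pdyn, Rmst and the oligodendrocyte-precursor gene Gpr17. Leaving out any of the other 4 sections gave 0, as did slide as a block and the sections of slide 1 alone. With replicate number as a block, 9 genes were called (5 higher and 4 lower in posterior sections), though the labels tie no number to an animal. The lack of calls in the main fit therefore depends on leaving this block out. A position difference in Sst cells was also set against that in Pvalb cells of the same sections. Of 291 genes, 0 (0%) were called in this edgeR interaction test, 24 had an unadjusted p under 0.05, and DESeq2 called 0. The difference of the position differences was 0.90 ± 0.41 for Pdyn (adjusted p = 0.58), -0.36 ± 0.27 for Tacr1 (adjusted p = 0.78) and -0.93 ± 0.25 for Chrm2. Chrm2 did not pass either, since the smallest adjusted p of this edgeR interaction test was 0.51.

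**Figure D5:**
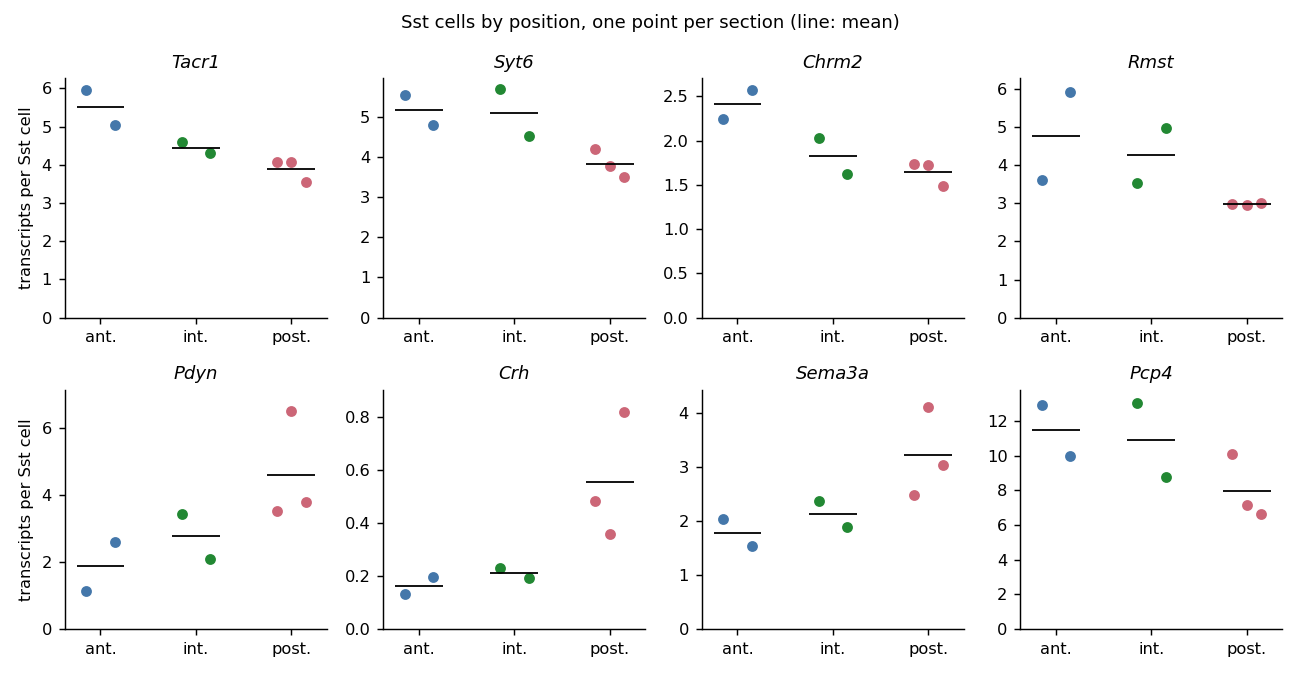
Transcripts per Sst cell in each section, in order from anterior to posterior, for 8 of the genes with the smallest p-values between anterior and posterior sections; each point is 1 section and each line a position mean. Tacr1 goes from 5.97 and 5.04 to between 3.56 and 4.07, Pdyn from 1.13 and 2.60 to between 3.52 and 6.49, and no gene passed an adjusted p of 0.05 in the main fit.

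Over the Sst cells of a section, the gene whose counts ranked most like those of Sst was Chodl, with a median Spearman coefficient over 7 sections of 0.330 (0.0207 to 0.485). Next came Dner, a Notch-related neuronal receptor (0.324), Galnt14, a glycosyltransferase (0.269), Rab3b (0.246) and Tox (0.244). The total transcripts of the cell gave 0.331 with Sst, and the part of shared depth in these coefficients was not tested. They rest only on the range of counts above the minimum of 8.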

How the data were processed

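The table deposited by the authors gives raw counts of transcripts for each gene in each segmented cell, and a deposited cell table, joined by barcode, gives the section. Cell sums equalled the deposited totals in 100% of cells. Xenium on fresh-frozen sections is stated per the labels' protocols. The submitters' processing notes name Seurat, and its version, the segmentation and any cell filter were not found in these sources. Of 297 symbols, 296 matched the mouse RefSeq gene table. No columns of unmapped samples were present.

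Counts were summed per section, or per section and class, over cells of each rule. Sums were tested with edgeR 4.0.16 (filterByExpr, TMM, glmQLFit and glmQLFTest, R 4.3.3) with section as a block for classes and divisions, and position alone otherwise. Log2 differences carry SE taken from the F statistic. The 6 rule genes, and the gene that names or divides a class, were left out of library sizes and tests. The position fit and the fit against Pvalb cells were tried on simulated sums, with a spread that was set and not estimated from these sections. At a log2 change of 1, the position fit recovered 23 of 29 changed genes and called 5 of 191 unchanged ones. The Pvalb fit recovered 30 of 30 and called 3 of 231. How many changes the fits would find at the real spread was not measured. Levels are means over sections of transcripts per cell. DESeq2 1.42.0, other scaling, filters, thresholds, thinning, slide, replicate number and each section left out served as alternatives.

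The genes named were drawn from a list, not all of which the text prints: among those called with 1 sign in every section (for position, with no overlap), those 10 whose log2 difference was largest on either side, up to 4 called genes of each list, and listed genes passed or not. A few further genes were named after their values were seen. The members, classes and gene lists were chosen with earlier results of these data known. Results for some measured genes are not reported here.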

Additional observations from a re-analysis of the deposited data

How the results depend on the processing

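For 315 pairs of gene and comparison, 4799 values were recomputed. Of these, 4560 kept their side of the threshold and, where called, their direction, 192 no longer passed and 30 newly passed. A further 17 turned their sign while called in the main fit, the alternative or both. Sign was not compared for values called in neither, so some of the 4560 may have turned. The Meis2 division already lacked anterior replicate 2 and posterior replicate 4. Its fits without them repeat the main fit and could not change. Called genes numbered 182 to 233 against Pvalb cells, 130 to 203 against Vip cells and 121 to 205 against Lamp5 cells over all alternatives, and 0 in every fit of the position difference between classes. Thinning gave 29 calls for Meis2 and 45 for Calb2, with fewer genes tested. For position, 2 genes were called without the limit on Slc17a7, and leaving out a section gave 0 to 3. The share difference turned to 0.0380 points without that limit, and leaving out a section gave -0.0277 to -0.00757. Without cells rich in glial transcripts, the differences from Pvalb cells turned for Siglech (0.19), Laptm5 (0.23), Acta2 (0.32) and Dcn (0.26). Without the limit on Slc17a7 they turned for Neurod6 (-0.046), Fezf2 (-0.76) and Vip (0.41), those from Lamp5 cells for Bdnf (-1.02), Fos (-0.046), Nrn1 (-1.32), Neurod6 (-0.56), Cux2 (-0.47), Fezf2 (-0.45), Pdyn (1.34), Crh (0.23) and Calb1 (0.57), and that of Cabp7 between Calb2 divisions (-0.15). The cause was not tested. With replicate number as a replicate block, 9 genes were called for position (5 higher, 4 lower). The labels do not tie a number to an animal, and deviations of same-numbered sections correlated at 0.52 between anterior and intermediate sections (the same value for replicates 1 and 2, since groups of 2 mirror each other), 0.11 between intermediate and posterior replicate 1, and 0.07 between anterior and posterior replicate 1. As 1 pair lay under 0.1, the numbers were not taken as pairs. A low value in 1 pair does not show that the sections are unpaired. The lack of position calls in the main fit depends on this choice. A minimum of 16 Sst transcripts left too few cells per section for the Meis2 and Calb2 divisions and was not run there. Depth limits the genes with well under 1 transcript per Sst cell, since 56 to 110 cells per section then give few counts.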
